A study of Mus musculus with 6 samples.

Results

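Markers of cells that are not T cells were read on arrays of sorted mouse CD4 T cells, as a measure of what the sorted samples held besides T cells. A list of 45 genes was taken, covering B cells, plasma cells, antigen-presenting cells with MHC class II, dendritic cells, monocytes and macrophages, granulocytes and red cells. Of these, 44 had a probe set annotated to that gene alone, out of 18193 genes on the platform, and each gene was read by the probe set whose mean log2 signal over the 6 arrays was highest. Hbb-bt was the exception: its probe set is shared with other beta globin genes and is described apart. The study asks what loss of the protease furin does to T cells. All animals were C57BL/6 mice of 10 to 11 weeks that carried Fur flox/flox alleles, and the control arrays, labelled WT, come from such mice without Cre. The Furin cKO (conditional knockout) arrays come from mice that also carry CD4 cre, which acts in the T cell lineage from a thymocyte stage on. From each genotype 3 populations were hybridised, with 1 array for each of the 6 combinations. Activated cells are CD4+ CD62L+ CD44- naive cells cultured for 2 days on plate-bound anti-CD3 and anti-CD28, each at 5 µg/ml. Memory cells (CD4+ CD62L- CD44+) and regulatory cells (CD4+CD25+FoxP3+) were sorted by flow cytometry and not cultured. The labels do not say how many animals stand behind an array or whether RNA was pooled.

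A sorted T cell sample is defined by the proteins of its gate, and cells of another kind enter it when they carry those proteins, stick to a T cell or are carried over. Each lineage here is known by products that its cells make in large amounts. B cells make the antigen receptor and its signalling chains Cd79a and Cd79b, plasma cells secrete antibody, dendritic cells and macrophages load peptides on MHC class II, neutrophils fill granules with antimicrobial proteins, and red cells carry globin messenger RNA. T cells themselves are known to make some of these products, and 14 of the 45 genes were put on a list of such markers, among them Irf8, Tcf4, Itgax, Mzb1 and Blk. In RNA of a whole sample, fewer cells of a type and less RNA per cell cannot be told apart.

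The samples read as T cells on all 6 arrays. All 13 T cell identity genes with a probe set lay at or above the floor, a signal of 47.6 set at the 40th percentile of all probe sets, and their summed signal was 66385 and 65870 in activated, 156099 and 165195 in memory and 141665 and 137906 in regulatory cells. In every such pair the control array comes first. Foxp3, the transcription factor that defines regulatory T cells, went against the labels. It read 50.4 and 33.8 on the arrays labelled regulatory and 1358 and 1116 on the memory arrays. Other genes known for regulatory cells followed the labels: Il2ra (CD25) read 4277 and 3702 on the regulatory and 1190.3 and 627 on the memory arrays, and Ctla4 read 11033 and 10619 and 3339.9 and 2934. Ikzf2 lay closer, at 13901 and 15968 on the regulatory and 9419 and 8213 on the memory arrays. On the activated arrays Il2ra read 2320.5 and 2340 and Ctla4 11925 and 10316.5, so neither gene was confined to the regulatory arrays. The arrays are called by their labels here, and every statement on regulatory arrays rests on them. Among all probe sets, 49.4% and 49.8% reached the floor in activated cells and 62.6% to 67.4% on the other 4 arrays. RNA quality was read from the beta-actin control probe sets, whose 3' to 5' ratio was 1.93 and 1.56 on the memory arrays and between 1.22 and 1.36 on the other 4. The part of these differences in the results below was not tested.

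Promoter sequences are shown for MHC class II genes and granulocyte genes, which differed in opposite directions between the memory arrays. MHC class II genes are switched on by the coactivator Ciita, which is recruited by proteins bound at the X box and the Y box of their promoters, and granule genes of neutrophils are known targets of C/EBP factors. RefSeq promoter sequences of GRCm38.p6, from 250 bases before to 50 bases after a gene's start, were held for 29 of the 45 members. The last 150 bases before the start are printed, 5' to 3' on the gene's strand, with motif matches in capitals. The printed bases of H2-Aa lie at chr17:34287824-34287973 on the minus strand and those of H2-Eb1 at chr17:34305717-34305866 on the plus strand. Those of S100a9 lie at chr3:90695722-90695871 on the minus strand and those of Ngp at chr9:110419658-110419807 on the plus strand.
H2-Aa: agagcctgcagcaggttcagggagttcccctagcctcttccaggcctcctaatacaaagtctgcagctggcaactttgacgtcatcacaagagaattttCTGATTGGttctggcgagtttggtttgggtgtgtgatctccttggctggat
H2-Eb1: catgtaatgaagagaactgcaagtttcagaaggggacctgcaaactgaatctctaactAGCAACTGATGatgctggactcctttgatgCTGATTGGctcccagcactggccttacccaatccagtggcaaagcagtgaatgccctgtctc
S100a9: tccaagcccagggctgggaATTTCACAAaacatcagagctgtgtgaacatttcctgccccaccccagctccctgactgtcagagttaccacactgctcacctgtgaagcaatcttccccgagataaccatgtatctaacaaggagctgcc
Ngp: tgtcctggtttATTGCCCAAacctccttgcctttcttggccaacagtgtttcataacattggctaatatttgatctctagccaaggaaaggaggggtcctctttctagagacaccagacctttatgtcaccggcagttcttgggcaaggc
The Y box was searched as CTGATTGG on both strands and starts 51 bases before the start of H2-Aa and 62 bases before that of H2-Eb1. It was found in 4.1% of all 32851 promoters of the table, in both MHC class II members held and in 3 of the 29 members, the other being Irf8. The X box was searched on both strands as AGNAAC and, after 1 further base, GATG. It was found in H2-Eb1, 92 bases before the start, and in 0.298% of all promoters. For C/EBP the letters TTNNGNAAT were searched on both strands, which match S100a9 131 bases and Ngp 139 bases before the start. Both matches are on the strand opposite to the one printed. This motif was found in 3 of the 9 granulocyte promoters held (Ltf, Ngp and S100a9) and in 11.5% of all promoters. A match describes the letters and is not evidence of binding.

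At this floor, markers of other cells were mostly below it on the activated arrays and mostly above it on the arrays of cells that were not cultured. With the floor at the 20th percentile, a signal of 13.3, 33 and 33 of the 44 members reached it on the activated arrays. The share of all genes per array at that lower floor was not counted. Of the 44 members, 16 and 13 reached the floor of 47.6 in activated, 37 and 42 in memory and 38 and 40 in regulatory cells. The same shares for all genes were 56.9% and 57.4%, 69.9% and 73%, and 72.4% and 73.6%, against 36.4% and 29.5%, 84.1% and 95.5%, and 86.4% and 90.9% of the members. Bst1, an enzyme of myeloid cells, was below the floor on all 6 arrays. The highest signal lay on the memory control array for 19 members and on the memory Furin cKO array for 17. On the activated arrays 0 of 10 granulocyte markers were above the floor, and 3 of 10 B cell markers were on each. The number of arrays limits the precision of these counts.

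**Figure D1:**
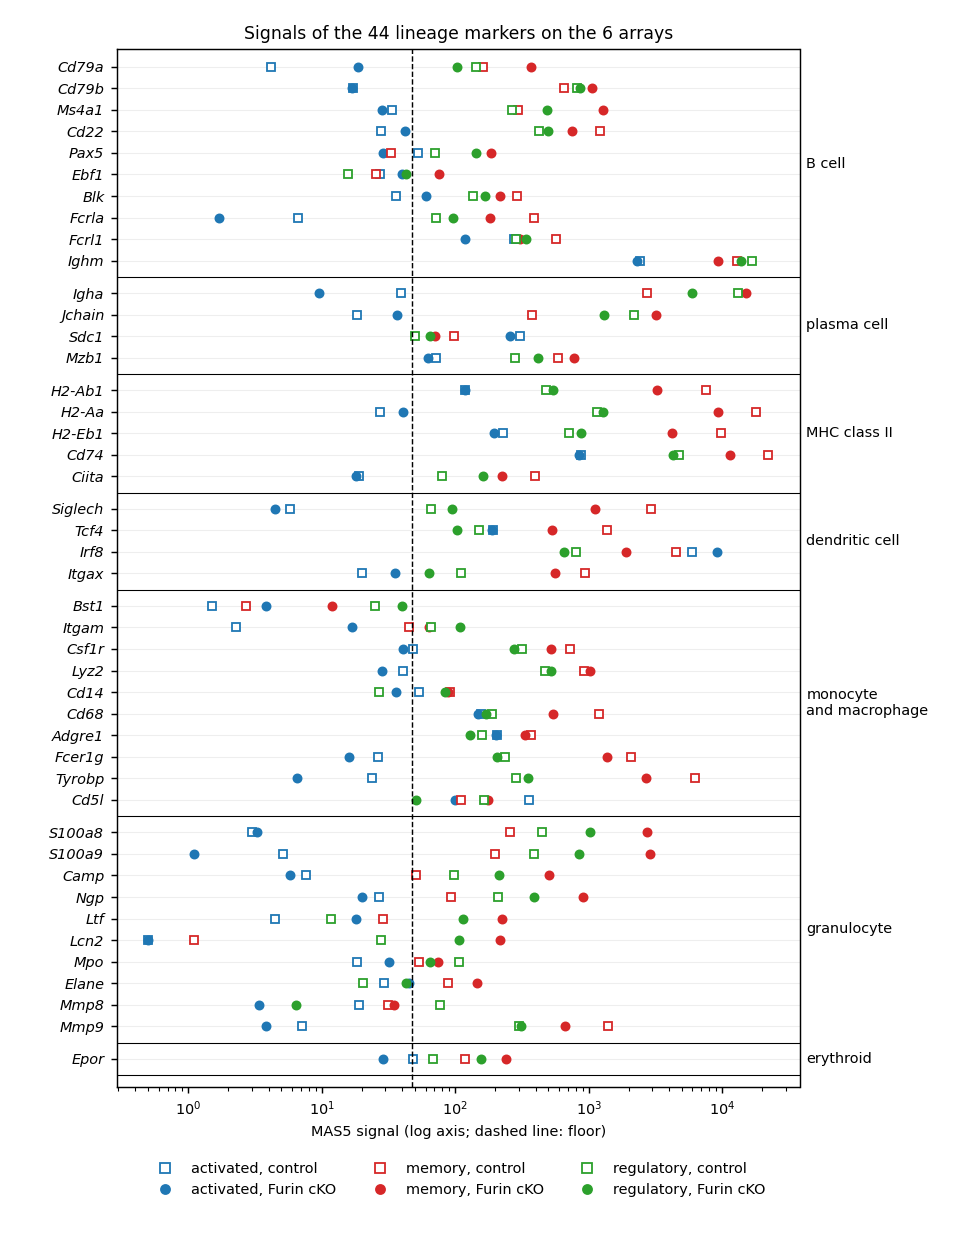
Signal of each of the 44 lineage markers (rows, grouped by lineage) on each of the 6 arrays (log axis). Open squares are control and filled circles Furin cKO arrays, coloured by population, and the dashed line is the floor of 47.6; MHC class II genes are highest on the memory control array, and most granulocyte genes on the memory Furin cKO array.

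The population difference was tested with limma on all 6 arrays and 15811 genes, with population and genotype as factors and Benjamini-Hochberg adjustment. The 2 genotypes of a population stand in for replicates, with 2 residual degrees of freedom, so its p-values measure spread between these arrays and not between animals. On the activated arrays 29 of 43 tested members (67.4%) were lower than on the memory arrays at an adjusted p of 0.05, where 26.9% of all genes were, and 1 was higher, where 17.3% of all genes were. Against the regulatory arrays 20 of 43 (46.5%) were lower and 2 higher, where 26.5% and 18.1% of all genes were. The median log2 difference of the members was -2.5 and -1.35 in these comparisons, and that of all genes was -0.21 and -0.23 with the deposited scaling and 0 with quantile normalization. Of the 29 and 20 members called lower, 18 and 13 were below the floor on both activated arrays and enter at the floor, so that their differences are lower bounds and they have no spread there. The calls rest on few arrays. The count of 29 fell when any 1 array was left out, and the count of 20 without either activated or either regulatory array. Fewer arrays lower the power for every gene, and the share of all genes called in these fits was not counted. The falls therefore cannot be read as particular to the members.

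Among members called lower in both comparisons, Ighm, Cd74, H2-Ab1, H2-Eb1 and Mzb1 stood above the floor on both activated arrays, and Csf1r and Blk on 1 of them. Cd74, the invariant chain that guides MHC class II molecules, read 874 and 850.0 in activated, 22262 and 11503 in memory and 4761 and 4301 in regulatory cells. It was lower on activated than on memory arrays (log2 difference -4.21 ± 0.28 (SE), adjusted p = 0.0021) by limma. Without the regulatory control array the adjusted p in limma was 0.0516. By their chosen probe sets Sdc1 and Irf8 went the other way. Sdc1, the syndecan CD138 of plasma cells, read 308 and 258 in activated, 98.8 and 71.1 in memory and 49.8 and 65.1 in regulatory cells. Its probe sets disagreed. Another one read lower in activated cells, at 72.9 and 41.2 against 138.7 and 91.1 in memory cells. A further one read higher, at 284.6 and 306.9 against 96.1 and 48.4, and the last was below the floor throughout. With probe sets averaged the log2 difference was 0.73 (adjusted p = 0.0442, by limma). By the chosen probe set Sdc1 was higher on activated than on memory arrays (log2 difference 1.75 ± 0.25 (SE), adjusted p = 0.00855, by limma). This call was lost without any 1 of the 4 activated and memory arrays, with adjusted p from 0.0683 to 0.0907 in limma. Irf8, a transcription factor of dendritic cells that activated T cells also make, read 5927 and 9084 in activated, 4521 and 1909.9 in memory and 801 and 649.9 in regulatory cells, and was higher on activated than on regulatory arrays (log2 difference 3.35 ± 0.47 (SE), adjusted p = 0.00821, by limma). This call was lost without either regulatory array, with an adjusted p of 0.159 or 0.156 in limma. The activated arrays were thus above both other pairs for Irf8, while the memory arrays were above the regulatory arrays.

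Between memory and regulatory arrays, markers of dendritic cells and of MHC class II read higher in memory in both genotypes. Of 43 tested members, 0 passed an adjusted p of 0.05 in limma, as did 0% of the 15811 genes, and 23 of 43 (53.5%) had an unadjusted p under 0.05, where 21.2% of all genes did. The smallest adjusted p of a member was 0.0518, for Fcer1g. With the floor at the 60th percentile 13 members were called higher in memory, where 2.46% of all genes were, and 0 lower, where 1.72% were. Without the genotype term 9 were called higher, where 2.44% of all genes were, and 0 lower, where 1.7% were. Within the control genotype 20 of 40 members measured were at least 2-fold higher on the memory array, where 5.95% of all genes were, and Igha, Jchain and Ngp were at least 2-fold lower, where 4.41% were. Within Furin cKO 24 of 42 were at least 2-fold higher, where 7.59% of all genes were, and 0 lower, where 5.54% were. These pairs are 1 array against 1 array and have no test.

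**Figure D2:**
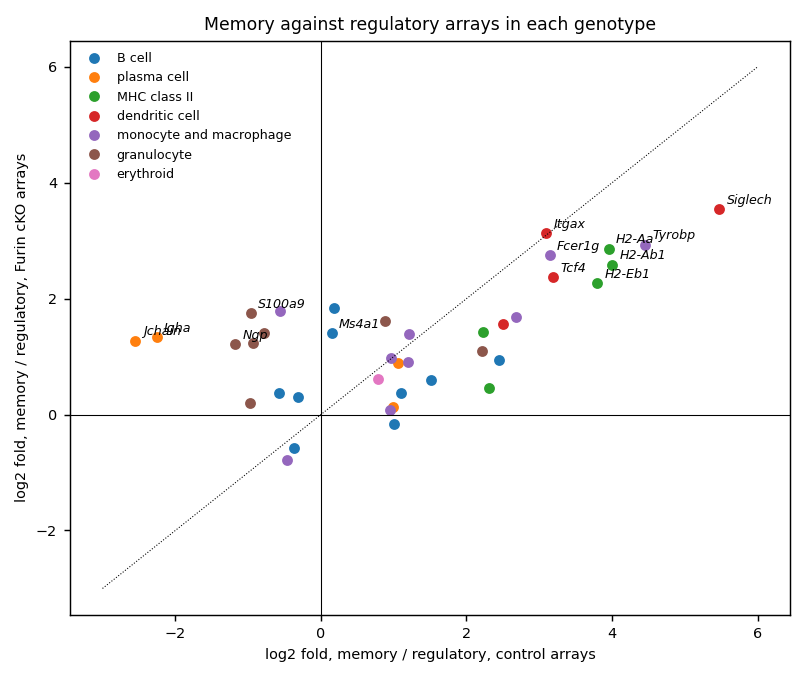
Log2 fold of memory over regulatory for each member measured in both genotypes, control arrays on the x axis and Furin cKO arrays on the y axis, coloured by lineage, with signals below the floor raised to it; the dotted line marks equal folds. Siglech, Tyrobp and the H2 genes lie far above 0 on both axes, while Igha, Jchain and S100a9 lie below 0 on the control and above 0 on the Furin cKO axis.

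Genotype differences of 2-fold or more in these markers were most frequent between the memory arrays, and their direction varied by lineage. Of 42 members measured in memory cells, 12 (28.6%) were at least 2-fold higher on the Furin cKO array, where 5.62% of all genes were, and 9 (21.4%) at least 2-fold lower, where 3.64% were. Among regulatory arrays 8 of 41 (19.5%) were at least 2-fold higher, where 3.14% of all genes were, and Igha and Cd5l (4.88%) were at least 2-fold lower, where 2.12% were. The count of 8 was 4 with cyclic loess and 2 when the floor was set at the 60th percentile. The share of all genes past 2-fold under these settings was not counted, so the fall cannot be read as particular to the members. Among activated arrays 0 of 17 members were at least 2-fold higher, where 0.39% of all genes were, and Fcrl1 and Cd5l were at least 2-fold lower, where 0.372% were. The median log2 fold of the members was -0.06, -0.09 and 0.23 in activated, memory and regulatory cells, and that of all genes 0, -0.01 and -0.01. The 2-fold differences, 2 in activated, 21 in memory and 10 in regulatory cells, kept their direction under those of the other normalizations, floors and probe set rule that gave a value, and 1, 14 and 3 of them stayed past 2-fold. In regulatory cells Pax5, Ltf and Lcn2 had no value under the 60th percentile floor, so 7 of the 10 were measured in every alternative. For a genotype difference shared by the 3 populations, 0 of 43 members passed an adjusted p of 0.05 in limma, as did 0% of all genes. An unadjusted p under 0.05 was found for 0 of 43 members and 2.81% of all genes.

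**Figure D3:**
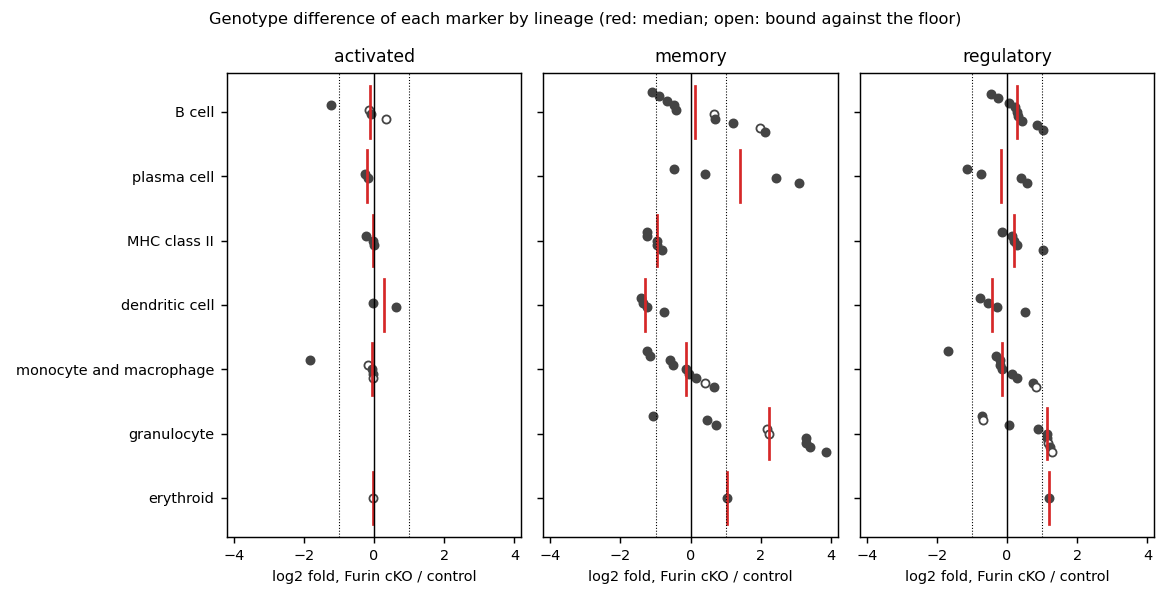
Log2 fold of Furin cKO over control for each measured member (points), by lineage (rows) in the 3 populations (panels); open points are bounds against the floor, red bars are medians, and dotted lines mark 2-fold. In memory cells the MHC class II and dendritic cell members all lie to the left of 0, the granulocyte median lies at 2.23, and the B cell members lie on both sides.

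The B cell list divided in memory cells. Ms4a1 (CD20), a surface protein of mature B cells, read 33.9 and 28.5 in activated, 297 and 1285 in memory and 268 and 485 in regulatory cells, and its memory fold was 4.32-fold in favour of Furin cKO. The memory Furin cKO array stood above the other 5. Cd79a and Cd79b, the signalling chains of the B cell receptor, read 161 and 373, and 657 and 1057, on the memory arrays, 2.31-fold and 1.61-fold higher on Furin cKO. On the regulatory arrays they read 142 and 104, and 819 and 855, while all 4 activated readings were below the floor.

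Pax5, the factor that commits cells to the B lineage, read 32.8 and 186 on the memory arrays, at least 3.91-fold higher on Furin cKO, and 71.1 and 144 on the regulatory arrays, 2.03-fold higher. Ebf1, another early B lineage factor, was above the floor on the memory Furin cKO array at 75.9 and below it on the other 5. The 1 signal above the floor was thus close to it.

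The other 5 B cell members read lower on the memory Furin cKO array. Cd22, an inhibitory receptor of B cells, read 27.7 and 41.9 in activated, 1212 and 756 in memory and 426 and 501 in regulatory cells, and was 1.60-fold lower. Fcrla, an intracellular Fc receptor-like protein, read 392 and 184 on the memory and 72.1 and 96.2 on the regulatory arrays, 2.13-fold lower in memory. Fcrl1, a surface relative of it, read 278 and 118 in activated, 569.7 and 304 in memory and 284 and 341 in regulatory cells. It was lower on the Furin cKO array by 2.36-fold in activated and 1.87-fold in memory cells. In regulatory cells it was 1.20-fold higher by this probe set and 1.18-fold lower by its other one, at 69.8 and 59.1. The kinase gene Blk read 292 and 218 on the memory arrays, 1.34-fold lower. In these 5 genes, among them Ighm, the memory folds ran from 1.34 to 2.13 downward, and in the 5 higher genes from 1.6 to 4.32 upward. The list's median log2 fold of 0.13 therefore describes neither set, and it was -0.03 with quantile normalization, -0.41 with cyclic loess and -0.42 under the 60th percentile floor. Averaging the probe sets of each gene gave 0.53, and turned the memory log2 fold of Ighm from -0.47 to 0.8. The division was seen in the values and not fixed beforehand.

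Other B cell genes divided as well. Of 13 with a probe set, 5 read higher and 8 lower on the memory Furin cKO array, 3 and 1 of them by at least 2-fold. The complement receptor gene Cr2 read 77.1 and 257, 3.33-fold higher, the IgE receptor gene Fcer2a 84.4 and 183, 2.17-fold higher, and Vpreb3 36.0 and 209, at least 4.40-fold higher. The other 2 that read higher were Bank1 and Pou2af1. The highest in level on these arrays were Ly6d, Ly86 and Spib, which are also known from plasmacytoid dendritic cells or other myeloid cells. They read 3409 and 2019, 2648 and 1489.6, and 1940.2 and 732, each lower on Furin cKO, by 1.69-fold, 1.78-fold and 2.65-fold.

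Antibody transcripts differed between arrays in a pattern of their own. Igha, the heavy chain of IgA, read 39.3 and 9.5 in activated, 2754 and 14979.8 in memory and 13170.1 and 5947 in regulatory cells. It was 5.44-fold higher on the Furin cKO array in memory cells and 2.21-fold lower in regulatory cells, so the memory control array was the low one of the 4 uncultured samples. The other 2 Igha probe sets were 6.08-fold and 4.41-fold higher in memory and 2.07-fold and 2.03-fold lower in regulatory cells. Jchain, which joins IgA and IgM into polymers, read 18.5 and 36.5 in activated, 374 and 3185 in memory and 2191 and 1315 in regulatory cells, 8.51-fold higher in memory and 1.67-fold lower in regulatory cells. The same array was low. For the kappa light chain, 3 probe sets shared with variable genes read 4099 and 16747, 3860 and 11967, and 2602 and 7867 on the memory arrays, and between 5597 and 9103 on the regulatory arrays.

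Ighm, the heavy chain of IgM, has 11 probe sets, and they did not follow one course. The one with the highest mean read 2429 and 2306 in activated, 12987 and 9365 in memory and 16773 and 13928 in regulatory cells, lower on Furin cKO by 1.39-fold in memory and 1.20-fold in regulatory cells. A second probe set was also 1.39-fold lower in memory. The other 6 measured in memory were higher on Furin cKO, and the largest of these differences went from 54.5 to 1917, 35.2-fold, with 1630.2 and 1286 on the regulatory arrays. These 6 shared with Igha and Jchain a low value on the memory control array. On the activated arrays, where the chosen Ighm probe set read 2429 and 2306, Cd79a and Cd79b were below the floor. Antibody genes share sequence, and probe sets that read more than 1 of them are uncertain.

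**Figure D4:**
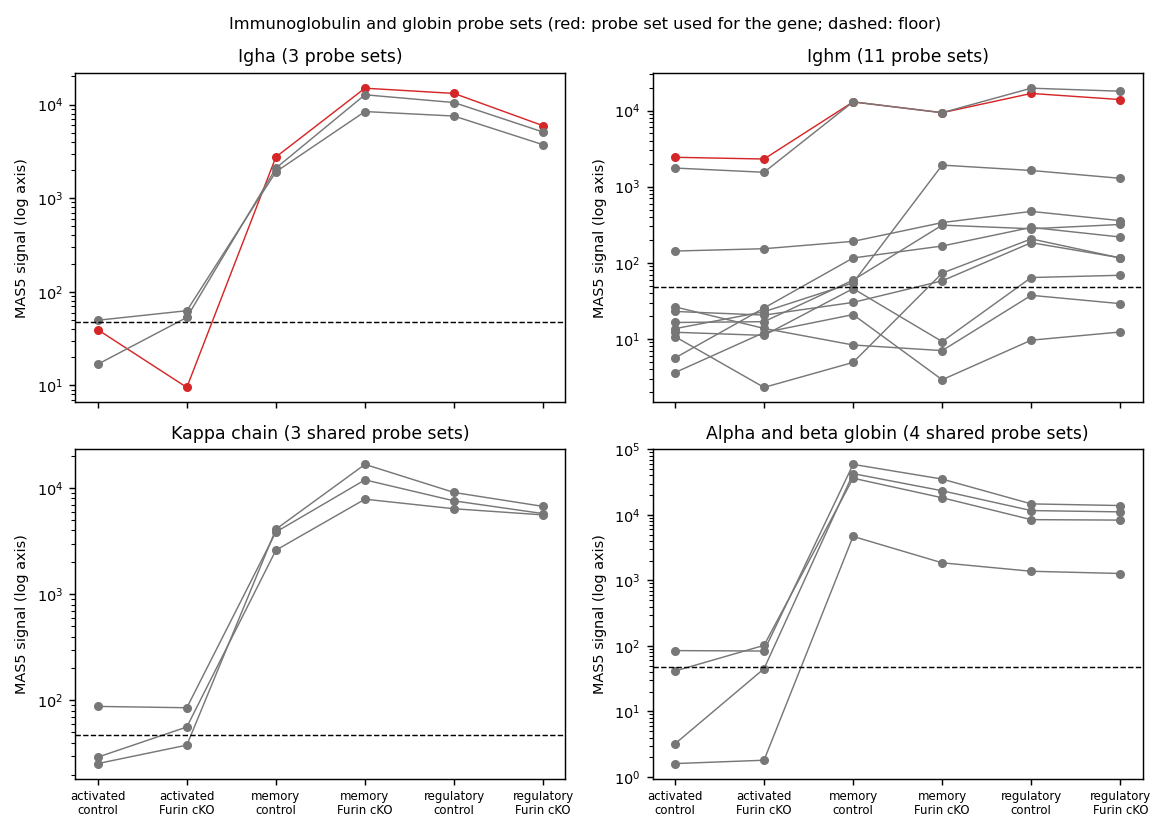
Signals (log axis) of every Igha, Ighm, kappa chain and globin probe set on the 6 arrays; each line is 1 probe set, red lines are those used for a gene, the dashed line is the floor, and the order of arrays has no meaning in time. Igha and kappa signals are lowest among the uncultured samples on the memory control array, where globin signals are highest.

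The remaining plasma cell markers moved less. Mzb1, a chaperone of antibody-secreting and marginal zone B cells, read 71.4 and 63.0 in activated, 588 and 775 in memory and 282 and 419 in regulatory cells, 1.32-fold higher in memory and 1.48-fold higher in regulatory cells on the Furin cKO array. Sdc1 was 1.39-fold lower in memory and 1.31-fold higher in regulatory cells. Of 8 other genes of the secretory programme, 4 read higher in memory (Prdm1, Derl3, Tnfrsf17 and Fkbp11) and 4 lower (Xbp1, Irf4, Tnfrsf13b and Creld2), 0 of them past 2-fold. Xbp1, Tnfrsf13b and Prdm1, which T cells also make, read 8596 and 6327, 2094 and 1567, and 1166 and 1312 there.

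All 5 MHC class II genes were lower on the memory Furin cKO array than on its control and higher in memory than in regulatory cells in both genotypes. H2-Ab1, the beta chain of the I-A molecule, read 119 and 119 in activated, 7618 and 3246 in memory and 475 and 541 in regulatory cells. H2-Aa, its alpha chain, read 27.3 and 40.4 in activated, 18042 and 9329 in memory and 1166 and 1285 in regulatory cells. H2-Eb1, the beta chain of I-E, read 229.5 and 195 in activated, 9855 and 4192 in memory and 709.7 and 870.4 in regulatory cells. In each case both memory arrays were above both regulatory arrays, and the memory control array was above the memory Furin cKO array.

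The memory Furin cKO array was lower by 2.35-fold for H2-Ab1, 1.93-fold for H2-Aa, 2.35-fold for H2-Eb1 and 1.94-fold for Cd74. Ciita, the coactivator that turns these genes on, read 394 and 223 on the memory arrays, 1.77-fold lower, and 79.9 and 162 on the regulatory arrays, 2.03-fold higher. The 5 members had a median log2 fold of -0.95 in memory, which ran from -0.86 to -1.18 over the alternatives. In regulatory cells the median was 0.19 with 4 of 5 higher, and the summed signal was 7192 and 7160.

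Memory exceeded regulatory signals by 16.0-fold, 15.5-fold and 13.9-fold for H2-Ab1, H2-Aa and H2-Eb1 in the control genotype, and by 6.00-fold, 7.26-fold and 4.82-fold in Furin cKO. For H2-Aa the limma log2 difference was 3.41 ± 0.32 (SE), adjusted p = 0.0599, which is past the threshold only under the 60th percentile floor (adjusted p = 0.0256) and without the genotype term (adjusted p = 0.0247) among the settings tried. Of 11 other genes of the class II pathway, 10 were lower on the memory Furin cKO array, 0 of them by 2-fold. The exception was Nfyc. Their highest were Nfyc, H2-DMa and Rfx5, at 2276 and 2582, 2322 and 2015, and 1560.1 and 1139 on the memory arrays. Nfyc and Rfx5 are subunits of the Y box and X box binding complexes found in many cell types. H2-DMa, which helps load peptide, was 1.15-fold lower. By limma 5 of these 11 genes were higher in memory than in regulatory cells, and the median log2 difference of the list was -0.02. That median joins H2 genes with the Rfx and Nfy genes, which lay between -0.32 and 0.05. Of the H2 genes, H2-DMb2 (2.21), H2-DMa (1.03), H2-Oa (0.87) and H2-Eb2 (0.85) were higher in memory. H2-Ob was lower (-0.71).

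Dendritic cell markers followed the class II genes between the memory arrays and in reading higher in memory than in regulatory cells. Between the regulatory arrays they did not, with 3 of 4 lower on Furin cKO and a median log2 fold of -0.43. That median ran from -0.51 to 0.03 over the alternatives. Siglech, a surface lectin of plasmacytoid dendritic cells (pDC), read 5.8 and 4.5 in activated, 2943 and 1111 in memory and 66.3 and 95.3 in regulatory cells. The memory arrays were above the regulatory arrays by 44.4-fold in the control and 11.7-fold in the Furin cKO genotype, and memory Furin cKO was 2.65-fold below its control. Tcf4, the factor that specifies pDC, read 191 and 188 in activated, 1381 and 533 in memory and 151 and 103 in regulatory cells, 2.59-fold lower in memory. Among its 5 other probe sets, 4 were also lower in memory, by 1.73-fold to 2.11-fold, and 1 dim one was higher. Irf8 was 2.37-fold lower in memory and 1.53-fold higher in activated cells on the Furin cKO array.

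Itgax (CD11c), an integrin of conventional dendritic cells, read 20.2 and 35.6 in activated, 938 and 557 in memory and 109.9 and 63.8 in regulatory cells, 1.68-fold lower in memory and 1.72-fold lower in regulatory cells. The 9 class II and dendritic cell members thus lay between 1.68-fold and 2.65-fold lower on the memory Furin cKO array. Of 12 other pDC genes 8 were lower there, and Pld4, Pacsin1 and Upb1 by at least 2-fold, while Ccr9, Tlr9, Il3ra and Lair1 were higher. Ccr9, Bst2 and Pld4 were the highest, at 5956 and 6393, 4035 and 2544, and 2221 and 784. Pld4, a nuclease of pDC and other phagocytes, was 2.83-fold lower, while the chemokine receptor Ccr9, which T cells also carry, was 1.07-fold higher. Of 8 other genes of conventional dendritic cells 7 were lower, of which Flt3, Cd209a and Sirpa by at least 2-fold, and Xcr1 was higher. They were led in level by Wdfy4 (1137 and 740.0), Clec10a (499 and 343) and Cd209a (707 and 206).

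Markers of monocytes and macrophages were mixed. Tyrobp, an adaptor of activating receptors in myeloid and NK cells, read 23.9 and 6.5 in activated, 6299 and 2679.9 in memory and 287 and 351 in regulatory cells, 2.35-fold lower on the memory Furin cKO array. Fcer1g, a similar adaptor for Fc receptors, read 26.2 and 16.0 in activated, 2074 and 1373 in memory and 235 and 205 in regulatory cells, 1.51-fold lower. Both stood above the regulatory arrays in memory, Fcer1g by 8.82-fold and 6.71-fold in the control and Furin cKO genotypes. Cd68, a lysosomal protein of macrophages, read 155 and 149 in activated, 1204 and 543 in memory and 188 and 169 in regulatory cells, 2.22-fold lower in memory.

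Csf1r, Lyz2, Adgre1 and Cd14 differed by less than 1.5-fold between the memory arrays. Csf1r, the receptor for the growth factor of macrophages, read 48.1 and 40.9 in activated, 727 and 519 in memory and 318 and 276 in regulatory cells, 1.40-fold lower in memory. Lyz2, the lysozyme of phagocytes, read 41.0 and 28.5 in activated, 917 and 1026 in memory and 471 and 524 in regulatory cells, 1.12-fold higher in memory, so that the genotypes were close while memory was about as far above regulatory in both (1.95-fold and 1.96-fold). The macrophage marker Adgre1 (F4/80) read 367 and 335 on the memory and 159 and 129 on the regulatory arrays. Itgam (CD11b) read 44.8 and 63.9, and 65.8 and 109, and the endotoxin receptor gene Cd14 91.7 and 88.3, and 26.9 and 84.1, all near the floor.

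Cd5l, a secreted protein of tissue macrophages, stood apart. It read 356 and 99.8 in activated, 112 and 176 in memory and 164 and 51.2 in regulatory cells, lower on Furin cKO by 3.57-fold in activated and 3.20-fold in regulatory cells and 1.58-fold higher in memory cells. The highest array was thus a cultured one. With the floor at the 60th percentile the regulatory log2 fold of Cd5l was -0.18, since that floor, 144.8, lies above the Furin cKO signal. Of 16 other monocyte and macrophage genes 13 of the 15 measured were lower on the memory Furin cKO array and the Fc receptor genes Fcgr1 and Fcgr3 were at least 2-fold higher, at 94.0 and 193, and 47.3 and 143. Ctss, Ccr2 and Cybb were the highest, at 14937 and 11506, 2576 and 1468, and 2525 and 1376, and T cells are known to express at least Ccr2.

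Most granulocyte markers were higher on the Furin cKO array in both uncultured populations. S100a8 and S100a9 encode the subunits of calprotectin, an abundant protein of neutrophils. S100a8 read 3.0 and 3.3 in activated, 259 and 2736 in memory and 444 and 1032 in regulatory cells, and S100a9 read 5.1 and 1.1 in activated, 199 and 2868 in memory and 388 and 851 in regulatory cells. Both rank the arrays alike: memory Furin cKO highest, then regulatory Furin cKO, regulatory control and memory control, with activated arrays below the floor. The folds were 10.6-fold and 14.4-fold in memory and 2.32-fold and 2.19-fold in regulatory cells.

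The granule protein genes Camp and Ngp followed the same order. Camp (cathelicidin) read 50.9 and 501 on the memory and 97.3 and 213 on the regulatory arrays, 9.85-fold and 2.19-fold higher on Furin cKO. Ngp (neutrophilic granule protein) read 93.5 and 910.1, and 211 and 392, 9.73-fold and 1.86-fold higher. Ltf (lactoferrin) and Lcn2 (lipocalin 2, an iron scavenger) were below the floor on every control array. On the Furin cKO arrays Ltf read 223 in memory and 115 in regulatory cells, at least 4.69-fold and at least 2.42-fold higher. Lcn2 read 217 and 108, at least 4.56-fold and at least 2.27-fold higher.

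Mpo and Elane, enzymes of early neutrophil precursors, moved less. Mpo (myeloperoxidase) read 54.0 and 74.2, and 107 and 64.5, higher by 1.37-fold in memory and lower by 1.65-fold in regulatory cells. Elane (neutrophil elastase) read 87.7 and 145, and 20.5 and 43.1, and Mmp8 (a collagenase of neutrophils) was above the floor on the regulatory control array at 76.8 and below it on the other 5. Mmp9, a gelatinase that other myeloid cells and some T cells also make, read 7.1 and 3.8 in activated, 1396 and 666 in memory and 300.4 and 309.8 in regulatory cells, 2.10-fold lower in memory. It was the 1 member of the list past 2-fold downward, and it took the course of the class II genes, highest on the memory control array.

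The granulocyte list had a median log2 fold of 2.23 in memory and 1.13 in regulatory cells, with 8 of 9 and 7 of 9 members higher. Over the alternatives these medians ran from 1.21 to 3.12 and from 0.74 to 1.13. The summed signal was 2201 and 8376 in memory, 1684 and 3135 in regulatory and 122 and 133 in activated cells. The median of other neutrophil genes in memory was 0.15. Of 8 with a probe set, 7 were measured in memory, with Chil3, Prtn3, Ctsg and Il1b higher and Csf3r, Fcnb and Padi4 lower. Chil3, a chitinase-like protein of myeloid cells, was at least 5.02-fold higher. In regulatory cells 5 were measured with a median of -0.11, which runs opposite to the members. Il1b was higher there, Chil3, Ctsg, Fcnb and Padi4 were lower, and Fcnb was at least 2.01-fold lower. The highest in memory, Il1b, Csf3r and Padi4, read 224 and 249, 138 and 115, and 89.7 and 65.4 on the memory arrays.

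Red cell transcripts were present on the 4 arrays of uncultured cells. The probe set shared by Hbb-bt, Hbb-bs, Hbb-b2 and Hbb-b1, which reads adult beta globin without separating these genes, gave 41.4 and 102 in activated, 36359 and 18281 in memory and 8473 and 8336 in regulatory cells. The memory signal was 4.29 times the regulatory signal in the control and 2.19 times in the Furin cKO genotype, and 1.99-fold lower on memory Furin cKO than on its control. The 3 probe sets shared by the alpha globin genes Hba-a1 and Hba-a2 were lower by 1.68-fold to 2.53-fold on the same array. On the regulatory pair all 4 globin probe sets were within 1.08-fold of each other between genotypes.

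Epor, the receptor for erythropoietin, took another course and read 48.3 and 28.7 in activated, 118 and 242 in memory and 68.4 and 157 in regulatory cells, 2.05-fold higher on Furin cKO in memory and 2.30-fold higher in regulatory cells. It is the 1 erythroid member with a probe set of its own. Alas2, which starts heme synthesis in red cell precursors, read 471 and 111 on the memory and 129.5 and 40.1 on the regulatory arrays, 4.26-fold and at least 2.72-fold lower on Furin cKO. Slc4a1, the anion exchanger of the red cell membrane, read 357 and 138, and 199.5 and 41.9, 2.59-fold and at least 4.19-fold lower. Of 7 other erythroid genes with a probe set, 5 were measured in memory, with Alas2, Klf1 and Slc4a1 lower and Gata1 and Car1 higher. In regulatory cells the same 5 were lower.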

How the data were processed

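Expression was measured on 6 Affymetrix arrays, 1 for each of 3 populations and 2 genotypes. The deposited intensity values are MAS5 signals, per the submitters' processing notes, and every array had a trimmed mean of 500 with 2% trimmed at each end, as checked on the deposited values. No label or header used here names the authors' software version. MAS5 scaling sets all arrays to one level, so a change in total RNA is not seen. Of 45037 probe sets that are not controls, 34945 carried 1 gene symbol in the platform annotation, 932 several and 9160 none, and genes were named from the first set. Signals under the floor (47.6, the pooled 40th percentile) were raised to it, and for each gene the probe set of highest mean log2 value was taken. A gene below the floor on both arrays of a pair was left out of that pair, and where 1 array of a pair was below the floor the fold is given as a lower bound ("at least"). With 1 array per group no test was made within a population.

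Populations, and the genotype over all populations, were compared with limma 3.58.1 in R 4.3.3 on log2 signals of the 15811 genes above the floor on some array, with population and genotype as terms, an adjusted p of 0.05 (Benjamini-Hochberg over all genes) and 2 residual degrees of freedom. The script was tested on simulated data. Values of all members are accounted for, and from each companion list up to 3 genes with the highest mean log2 signal on the pair under discussion, and genes behind counts of 5 or fewer, could be named. Quantile normalization, cyclic loess, floors at the 20th and 60th percentile, averaging all probe sets of a gene, no genotype term and leaving out each array were tried. The members and lists were chosen with earlier results of these data known.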

Additional observations from a re-analysis of the deposited data

Results flagged for a closer look

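Igha went in opposite directions between genotypes in 2 populations, with a log2 fold of Furin cKO over control of 2.44 in memory and -1.15 in regulatory cells. With 1 array per group this difference was not tested.

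Some probe sets that carry several gene symbols, and so stand outside the gene counts, were at least 2-fold brighter on a Furin cKO array than on its control. The shared kappa chain probe sets read 16746.7 against 4099.3, 11967 against 3859.9 and 7866.7 against 2602 in memory cells. A probe set of Ighv1-72 and Ighm read 165.1 against 58.9 there. Of genes known from neutrophils and macrophages, the probe set of Chil4 and Chil3 read 236 against 27.1 and that of Cstdc5 and Stfa1 106.4 against 4.6 in memory cells, with both controls below the floor. The peptide-loading genes H2-DMb2 and H2-DMb1 share a probe set that read 240.1 against 103.3 in regulatory cells. The shared beta globin probe set read 102.1 against 41.4 in activated cells. Other shared probe sets were at least 2-fold dimmer on the memory Furin cKO array. That of Klrb1b and Klrb1c read 386.4 against 1598.6, and an alpha globin probe set 1857 against 4699.7.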

How the results depend on the processing

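No pairing by animal was possible because the labels carry no replicate numbers and each group has 1 array. The limma fit compared populations with genotype as a term. The counts of members at least 2-fold apart moved most under the 60th percentile floor, to 2 higher and 1 lower in regulatory cells and 1 lower in activated cells. Cyclic loess gave 4 higher in regulatory cells. The shares of all genes past 2-fold under these settings were not counted. Under the 60th percentile floor 13 members were called higher in memory than in regulatory cells by limma, where 2.46% of all genes were. Without the genotype term 9 were, where 2.44% of all genes were, against 0 in the reported setting. Members reaching the floor numbered 33 and 33 on the activated arrays under the 20th percentile floor, and 10 and 8 under the 60th, where the regulatory arrays had 25 and 26. The shares of all genes per array under these floors were not counted. Leaving out 1 array at a time gave 10 to 21 members called lower and 0 to 1 higher in activated than in memory cells, and 0 to 21 lower and 0 to 3 higher than in regulatory cells. A group left with 1 array was assumed to vary like the others, and the share of all genes called in these fits was not counted. Of 473 genotype folds of single members under alternatives 9 changed sign, none of them past 2-fold in the reported setting. With averaged probe sets Ighm in memory went from -0.47 to 0.8 and Tcf4 in regulatory cells from -0.55 to 0.07. Sdc1 in activated cells went from -0.25 to 0.11 under the 60th percentile floor, and the other 6 lay within 0.11 of 0 on the log2 scale. Of limma differences between populations, 13 of 759 changed sign under other settings and 27 of 768 without 1 array, 0 of them called before or after. The cause of these shifts was not tested. Other measured probe sets of the members went against the chosen one in 5 of 10 cases in activated cells. In memory cells 7 of 33 did, and in regulatory cells 12 of 29. Signals near the floor limit what can be read from dim markers.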

Other observations

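Markers of further cell types were read as well. Of 5 NK cell genes with a probe set, Ncr1, Klra8, Klrd1 and Klre1 read higher and Eomes lower on the memory Furin cKO array. For Klrd1 and Ncr1 the difference was small, and Ncr1 read 75.8 and 89.3 there. A probe set shared by Klrb1b and Klrb1c, outside this count, went the other way. It read 1598.6 and 386.4 in memory cells, so NK cell markers had no common direction. Klrd1, a receptor chain that some T cells share, read 119 and 116 in activated, 3545 and 3585 in memory and 272 and 386 in regulatory cells. Both memory arrays were above the other 4. The CD8 coreceptor genes Cd8a and Cd8b1 read 217 and 264, and 854 and 433, in memory cells, so the chains differed in direction. Of 6 platelet genes 5 were measured in memory cells, with Pf4, Ppbp and Itga2b higher on Furin cKO and Gp1bb and Treml1 lower, and Itga2b read 202 and 325. Of 9 genes of mast cells, basophils and eosinophils 2 were measured in memory cells, Gata2 at 132 and 176 and Prg2 at 39.7 and 53.6. In regulatory cells 6 were measured, led by Ccr3 at 223 and 245, Prg2 at 190 and 287 and Gata2 at 214 and 132. On the memory arrays Ccr3 read 7.5 and 45.3, below the floor. By limma 0 of 6 tested were higher in memory than in regulatory cells. Of 7 stromal and endothelial genes 5 were measured there, with Pecam1, Epcam, Krt8 and Pdgfra higher on Furin cKO and Cdh5 lower, and Pecam1, which leukocytes also carry, read 112 and 49.5 in activated, 689 and 774 in memory and 1568 and 975 in regulatory cells.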
